A study of Mus musculus with 8 samples.

Results

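The genes described here are those encoded in mouse mitochondrial DNA, taken as the rows whose symbol starts with mt-. They number 37 of the 55357 genes in the deposited table, and comprise 13 protein-coding genes, 2 ribosomal RNAs and 22 transfer RNAs. The protein-coding genes are called messengers below, a term that counts genes and not separate RNA molecules. RNA was sequenced from germ cells enriched by collagenase and trypsin from the testes of C57BL/6 males at 15 days after birth, with 1 library per mouse. The 4 control mice were *Mgat2*[F/F], in which both alleles of *Mgat2*, a Golgi enzyme of complex N-glycan synthesis, are floxed. The 4 cKO mice were *Mgat2*[F/F]:*Stra8*-iCre, which carry the same floxed alleles and a Cre recombinase that the *Stra8* promoter drives in spermatogonia from 3 days after birth. The comparison asks whether loss of *Mgat2* in spermatogonia went with a different level or balance of mitochondrial transcripts.

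Mitochondrial DNA is a small circle that is transcribed from both strands into long precursors, from which messengers, ribosomal RNAs and transfer RNAs are cut. Its messengers encode core subunits of complexes I, III and IV of the respiratory chain and of ATP synthase, and all other subunits, as well as the machinery that copies and reads the circle, come from nuclear genes. Pieces of mitochondrial DNA have also been inserted into nuclear chromosomes during evolution, and such a piece can carry the same bases as the gene it was copied from.

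Such an insertion bears on every level given for the genes between *mt-Co1* and *mt-Nd4*. In GRCm39, chr1:24650616-24655269 on the minus strand aligned to bases 6390 to 11042 of mitochondrial DNA, which is 16299 bp long, with 99.936% identity over 4654 aligned positions. The differences were the substitutions A6393T in *mt-Co1* and T9461C in *mt-Nd3* (mitochondrial base first, position counted from the start of chrM, nuclear base last) and 1 inserted base in *mt-Tr*. The annotation places 7 pseudogenes there, each a copy of 1 mitochondrial gene. *Gm28661*, the copy of *mt-Co2*, was identical to it over 681 bp, *Gm10925* to *mt-Atp6* over 678 bp, *Gm28437* to *mt-Co3* over 783 bp, *Gm10222* to *mt-Nd4l* over 294 bp, *Gm28439* to *mt-Nd4* over 876 bp, *Gm28438* to *mt-Nd3* over 342 bp and *Gm29216* to *mt-Co1* over 479 bp. A read of 150 bases that falls wholly within such a stretch fits both places equally. The first 150 bases of *mt-Co2* (chrM:7013-7162, plus strand) and of its copy (chr1:24654497-24654646, minus strand) show this at the length of 1 read, with the start codon in capitals:
mt-Co2: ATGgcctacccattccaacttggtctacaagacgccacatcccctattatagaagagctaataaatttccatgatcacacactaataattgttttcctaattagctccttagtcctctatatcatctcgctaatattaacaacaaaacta
Gm28661: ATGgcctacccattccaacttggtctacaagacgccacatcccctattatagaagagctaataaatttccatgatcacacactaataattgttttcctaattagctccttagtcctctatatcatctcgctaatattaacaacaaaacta
In contrast, *mt-Nd3* (chrM:9459-9498, plus strand) and *Gm28438* (chr1:24652161-24652200, minus strand) can be told apart near their starts, where the capital marks the base that differs:
mt-Nd3: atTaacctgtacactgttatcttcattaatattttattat
Gm28438: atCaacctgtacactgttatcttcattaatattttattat

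Genes on the circle also abut or share bases with their neighbours. The reading frames of *mt-Atp8* and *mt-Atp6*, which encode subunits of ATP synthase, shared 43 bp (chrM:7927-7969, plus strand), shown with the start codon of *mt-Atp6* and the stop codon of *mt-Atp8* in capitals:
mt-Atp8/mt-Atp6: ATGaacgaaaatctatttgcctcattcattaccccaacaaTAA
The genes *mt-Nd4l* and *mt-Nd4* shared 7 bp (chrM:10152-10188 with flanks, plus strand), shown in capitals:
mt-Nd4l/mt-Nd4: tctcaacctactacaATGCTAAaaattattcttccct
*mt-Nd5* and *mt-Nd6* lie on opposite strands and overlapped by 14 bp. The libraries were not stranded, so reads of *mt-Nd6*, the only messenger on the minus strand, cannot be told apart from reads of RNA transcribed opposite to it.

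Library totals ran from 12584726 to 15907505 expected counts, the estimates in which RSEM divides reads that fit several genes. *Mgat2* had 69.5, 31.9, 63.9 and 60.02 CPM (counts-per-million units, scaled by TMM factors) in controls 1 to 4 and 35.5, 20.0, 37.6 and 16.0 CPM in cKO mice 1 to 4, so that the ranges overlapped. Its log2 fold change, cKO over control, was -1.05 ± 0.36 (SE, n = 4 and 4), with an adjusted p of 0.467 in edgeR's quasi-likelihood test. All 8 germ cell markers were measured, with a summed level of 1950 to 2532 TPM (transcripts-per-million units) in controls and 1858 to 2191 TPM in cKO mice. The sum joins markers that went different ways, with log2 fold changes from -0.41 to 0.22. At an unadjusted edgeR p under 0.05, 2 of the 8 were lower and 2 higher in cKO mice. Over all genes tested, 6.21% were lower and 2.73% higher at that threshold. The lowest adjusted p of the 8 markers was 0.332 in edgeR. The 7 Sertoli cell markers summed to 1477 to 1847 TPM in controls and 1511 to 1779 TPM in cKO mice, so RNA of somatic cells was present in both genotypes. Fewer cells of a type and less RNA per cell cannot be told apart in such samples. Replicates are different mice.

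The mitochondrial rows held 3.35%, 3.49%, 4.05% and 3.73% of all counts in control mice 1 to 4, and 4.54%, 3.98%, 3.85% and 3.77% in cKO mice 1 to 4. The genotypes overlapped, since control 3 lay above 3 of the cKO mice. The mean share was 3.66% ± 0.31 in controls and 4.04% ± 0.35 in cKO mice (SD, n = 4 each), a difference of 0.38 percentage points that did not pass a two-sided exact permutation test (p = 0.171, where the smallest p possible is 0.0286). Without cKO mouse 1 the difference was 0.21 points, and with mouse 1 of both genotypes left out it was 0.11 points (exact permutation p = 0.6, where the smallest p possible is 0.1). Without control 3 it was 0.51 points (exact permutation p = 0.0571). As a share of TPM the means were 8.81% ± 0.63 and 9.47% ± 0.16 (SD, n = 4 each), a difference of 0.66 points (exact permutation p = 0.0571). Wilson 95% intervals of single shares reached at most 0.0105 percentage points to either side, and cover counting error only. With the 7 nuclear copies added, the share was 4.86%, 5.03%, 6.03% and 5.59% in controls and 6.66%, 5.86%, 5.56% and 5.55% in cKO mice, with means of 5.38% ± 0.53 and 5.91% ± 0.52 (SD, n = 4 each) and an exact permutation p of 0.257. This difference of 0.53 points was 0.28 points without cKO mouse 1 and 0.11 points with mouse 1 of both genotypes left out. Without control 3 it was 0.75 points. The copies held between 30.7% and 33.2% of this sum in each mouse.

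**Figure D1:**
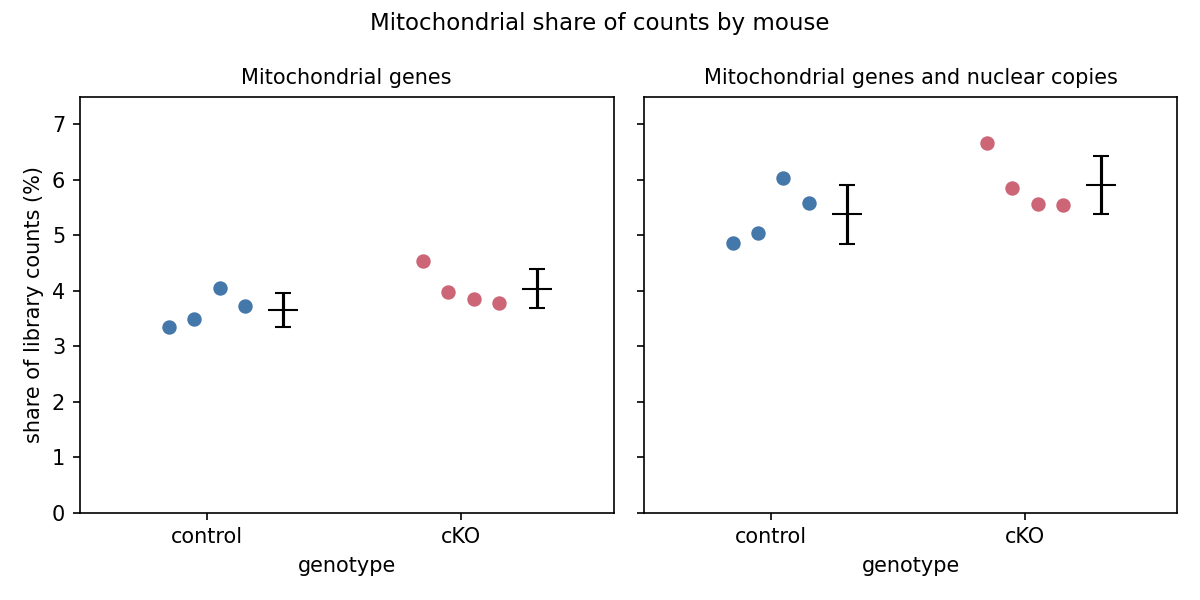
Share of all library counts (%, vertical axis) held by the mitochondrial rows (left) and by these rows with the 7 nuclear copies (right) in each of 4 control and 4 cKO mice, with the mean and SD in black. The cKO mice lay between 3.77% and 4.54% on the left and overlapped the controls, which lay between 3.35% and 4.05%.

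*Rn18s-rs5*, a nuclear copy of the 18S ribosomal RNA gene, differed in the same libraries without being called. It took 2.01% to 2.30% of counts in controls and 2.77% to 3.30% in cKO mice, ranges that did not overlap. Its log2 fold change was 0.48 ± 0.08 (SE), with an adjusted p of 0.0787 in edgeR. It is 1 of 21 tested genes listed for RNA without a long poly(A) tail, of which 0 were called and whose median log2 fold change was 0.18, against 0.01 over all genes. Single genes of this list were poorly measured, with a median SE of 0.64 and log2 fold changes from -0.87 to 1.65. With the counts of *Rn18s-rs5* left out of the total, the mitochondrial share was 3.74% ± 0.31 in controls and 4.16% ± 0.35 in cKO mice (SD, n = 4 each; exact permutation p = 0.143).

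Of the 37 mitochondrial genes, 15 passed the expression filter (TPM of at least 1 in at least 1 mouse), namely the 13 messengers and both ribosomal RNAs. All 22 transfer RNA genes, which are 59 to 75 bp long, were listed at 0 in every library. The reads were 150 bases long and the libraries were made from polyadenylated RNA, so a 0 here sets no limit on the transfer RNAs themselves. The shortest, *mt-Ts2* (chrM:11613-11671, plus strand), carries serine, and *mt-Tl1* (chrM:2676-2750, plus strand), a transfer RNA for leucine, follows the 16S ribosomal RNA directly; both are shown whole for their length against a read:
mt-Ts2: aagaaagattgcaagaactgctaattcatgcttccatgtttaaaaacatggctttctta
mt-Tl1: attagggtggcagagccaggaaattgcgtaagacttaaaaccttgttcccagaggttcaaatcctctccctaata

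RSEM divided the counts of the copied genes unevenly. Only 2.36% to 9.37% of the counts of *mt-Co2* and its copy went to *mt-Co2*, against 6.54% to 18.2% for *mt-Atp6*, 12.4% to 22.3% for *mt-Co3*, 10.9% to 36.0% for *mt-Nd4l* and 67.1% to 89.1% for *mt-Nd3*. For *mt-Co1* at least 99.3% of the counts went to the mitochondrial row, and for *mt-Nd4* at least 99.99% did. *mt-Atp8* lies within the inserted region but has no annotated copy. The division varied from mouse to mouse within a genotype, as for *mt-Atp6*, whose row received 15.6%, 18.2%, 9.37% and 10.9% in controls and 6.54%, 8.59%, 14.8% and 10.4% in cKO mice. A difference between mice in one of these rows therefore holds both a difference in level and a difference in division, and levels are given below for the gene and its copy together unless the row alone is named.

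**Figure D2:**
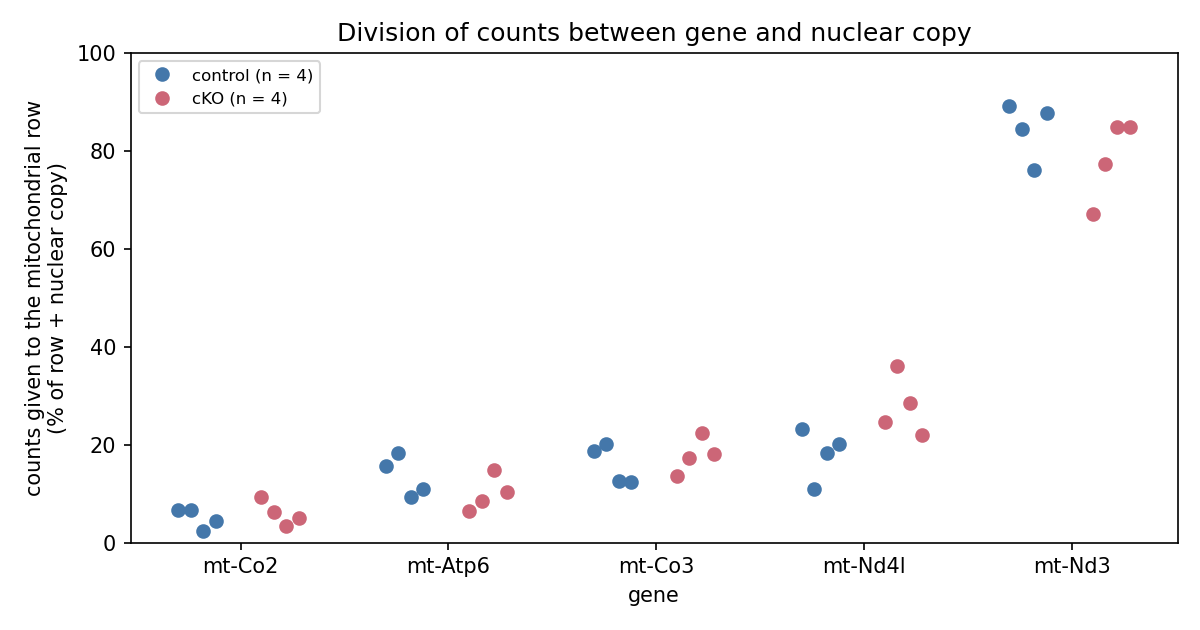
Percentage of the counts of a mitochondrial gene and its nuclear copy that RSEM gave to the mitochondrial row (vertical axis), for 5 copied genes in 4 control and 4 cKO mice, 1 point per mouse. *mt-Co2*, *mt-Atp6*, *mt-Co3* and *mt-Nd4l* lay at or below 36.0% in every mouse, and *mt-Nd3* at or above 67.1%.

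Levels were compared between genes as CPM of the library total per kb of gene. With copies added and averaged over the 8 mice, *mt-Co1* was highest at 12444 CPM per kb. *mt-Co3* followed at 10397, *mt-Co2* at 9451 and *mt-Atp6* at 8114 CPM per kb. These first 3, which encode the core subunits of complex IV, had ranges over the mice that overlapped, at 10757 to 15597, 9039 to 12050 and 8348 to 11183. Within each mouse, however, *mt-Co1* lay above *mt-Co3* and *mt-Co3* above *mt-Co2*. *mt-Cytb*, the complex III subunit cytochrome b, followed at 4066 CPM per kb, with a range of 3512 to 4805 that lay below that of *mt-Atp6* (6777 to 9028). Among the complex I subunits, *mt-Nd1* stood at 3452, *mt-Nd4* at 2703, *mt-Nd2* at 1745, *mt-Nd3* at 1086, *mt-Nd5* at 1035, *mt-Nd6* at 479 and *mt-Nd4l* at 376 CPM per kb. *mt-Atp8*, at 204 bp the shortest messenger, was lowest, at 73.9 CPM per kb. Few fragments fit within so short a gene, so its place in this order does not show that its RNA was scarce. Ranges over the mice overlapped between neighbours in this order except below *mt-Atp6*, *mt-Nd4*, *mt-Nd2*, *mt-Nd5* and *mt-Nd4l*. The order by gene row alone placed *mt-Co2* at rank 10 of 13, at 524 CPM per kb, and *mt-Co3* at rank 6, at 1738.

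The TPM values gave a different order for short genes. *mt-Atp8* had rank 2 among the 13 messengers by TPM, with 11750 to 20268 TPM, although it received only 126 to 260 expected counts in a library. It accounted for 14.9% to 21.2% of all mitochondrial TPM and for 0.0249% to 0.0517% of mitochondrial counts. TPM divides by the number of positions where a fragment can start, which is small for a gene of 204 bp. CPM per kb divides by the whole length instead. Neither measure therefore compares short genes such as *mt-Atp8*, *mt-Nd4l* and *mt-Nd3* safely with long ones. *mt-Nd3*, at 348 bp, had rank 3 by TPM.

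**Figure D3:**
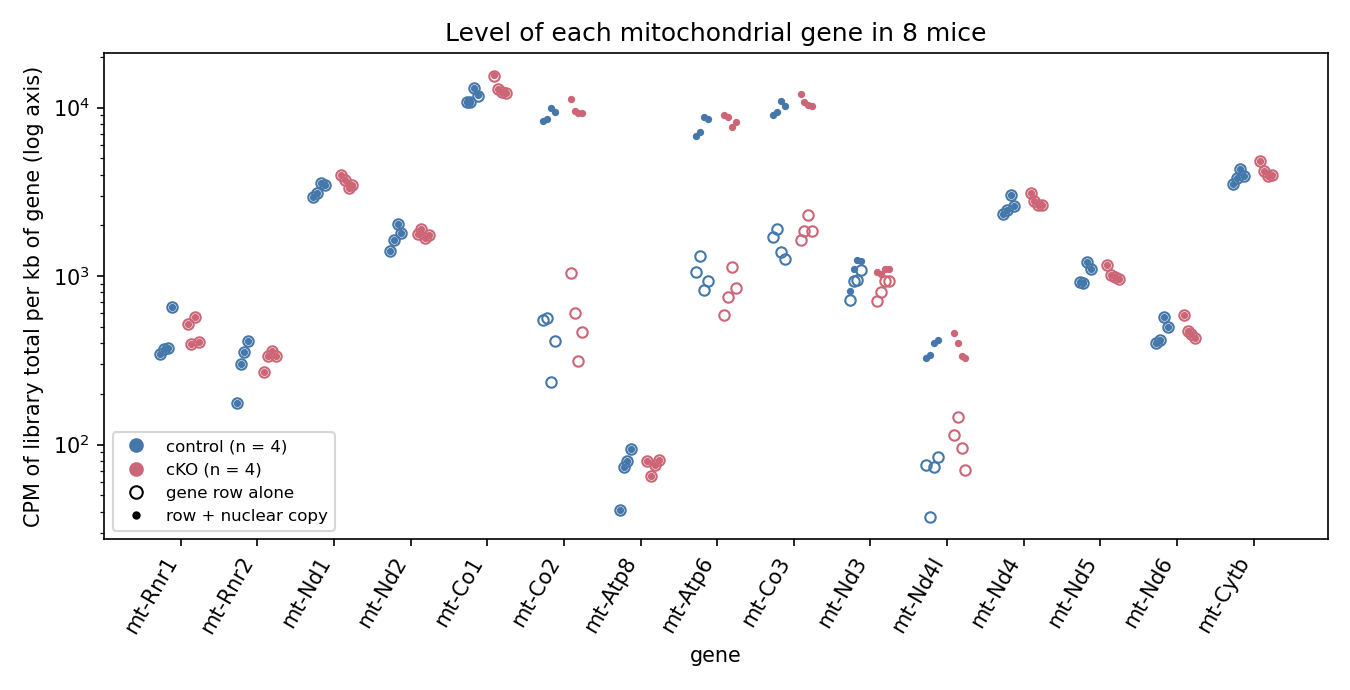
CPM of the library total per kb of gene (log axis) for 15 mitochondrial genes in 4 control and 4 cKO mice, as the gene row alone (open circles) and with the nuclear copy added (dots). The largest gap between the symbols is at *mt-Co2*, whose mean was 524 for the row and 9451 with the copy.

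No mitochondrial gene was called between genotypes. At a threshold of 0.05 on edgeR p-values adjusted by the Benjamini-Hochberg method across the 20187 genes that entered the fit, 0 of 15 passed for the gene rows and 0 of 15 with copies added. Over all genes 13 were called, which is 0.0644%. At an unadjusted p under 0.05, 1 of the 15 rows passed (*mt-Nd4l*) and 0 with copies added, against 8.94% of all genes. DESeq2, which called 1.28% of all genes, and limma also called 0 of the 15 rows. With copies added, the log2 fold changes of the 13 messengers ran from -0.03 to 0.20 with a median of 0.11, and 12 of the 13 lay above 0, although *mt-Nd5*, at 0.0018 as a row, turned negative with DESeq2 size factors and with library totals, and *mt-Nd2*, *mt-Atp8*, *mt-Nd5* and *mt-Nd6* did so as rows when mouse 1 of both genotypes was left out. With copies added, the number above 0 was 7 without control 1, 9 without control 2 and 9 without cKO mouse 1, with medians of 0.06, 0.07 and 0.06. It was 13 without control 3 or control 4, with medians of 0.18 and 0.12. Without cKO mouse 2, 3 or 4 it was 12, with medians of 0.11, 0.12 and 0.13. The median over all genes tested was 0.01, and 51.8% of them lay above 0.

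Of the complex IV messengers, *mt-Co1* with its copy had 17158, 16461, 20195 and 18018 CPM in controls and 24133, 19984, 19360 and 18753 CPM in cKO mice. cKO mouse 1 was highest, and the other cKO mice lay within the range of controls. The log2 fold change was 0.20 ± 0.10 (SE), with an adjusted p of 0.586 in edgeR. *mt-Co3* with its copy had 7241, 7288, 8615 and 7915 CPM in controls and 9461, 8548, 8212 and 8030 CPM in cKO mice, a log2 fold change of 0.14 ± 0.08 (SE). *mt-Co2* with its copy had 5834, 5762, 6827 and 6335 CPM in controls and 7661, 6557, 6454 and 6362 CPM in cKO mice, a log2 fold change of 0.13 ± 0.09 (SE). All 3 had the same arrangement, with 1 cKO mouse above every control and 3 within the range of controls. Without that mouse, cKO mouse 1, the log2 fold changes were 0.11 for *mt-Co1*, 0.09 for *mt-Co3* and 0.06 for *mt-Co2*.

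The ATP synthase messengers behaved differently as rows and as sums. *mt-Atp6* alone had 737, 883, 559 and 626 CPM in controls and 402, 516, 782 and 581 CPM in cKO mice, a log2 fold change of -0.30 ± 0.22 (SE). With *Gm10925* it had 4716, 4842, 5961 and 5719 CPM in controls and 6158, 6002, 5274 and 5590 CPM in cKO mice, a log2 fold change of 0.12 ± 0.09 (SE). The sign therefore turned with the copy, and neither value was called (adjusted p = 0.713 and 0.722 in edgeR). *mt-Atp8* had 8.52, 15.0, 16.3 and 19.0 CPM in controls and 16.3, 13.4, 15.6 and 16.5 CPM in cKO mice, a log2 fold change of 0.07 ± 0.21 (SE).

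Among the complex I messengers, *mt-Nd4l* as a row had the largest difference of any mitochondrial gene. It had 22.9, 10.9, 21.7 and 24.8 CPM in controls and 33.8, 43.3, 28.7 and 21.1 CPM in cKO mice, with 3 of 4 cKO mice above every control. The log2 fold change was 0.66 ± 0.29 (SE), with an unadjusted p of 0.049 and an adjusted p of 0.559 in edgeR. With *Gm10222* added the values were 98.6, 101, 118 and 123 CPM in controls and 137, 120, 100 and 96.1 CPM in cKO mice, and the log2 fold change was 0.04 ± 0.12 (SE). *mt-Nd1* had 2886, 2968, 3396 and 3291 CPM in controls and 3791, 3592, 3224 and 3318 CPM in cKO mice, with copies added to the fit, and a log2 fold change of 0.15 ± 0.08 (SE). *mt-Nd2*, *mt-Nd4*, *mt-Nd5* and *mt-Nd6* had log2 fold changes above 0 and at most 0.11, and *mt-Nd3* with its copy had -0.03 ± 0.11 (SE). *mt-Cytb* had 4105, 4332, 4958 and 4415 CPM in controls and 5506, 4863, 4553 and 4536 CPM in cKO mice, a log2 fold change of 0.13 ± 0.09 (SE) that was 0.06 without cKO mouse 1.

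**Figure D4:**
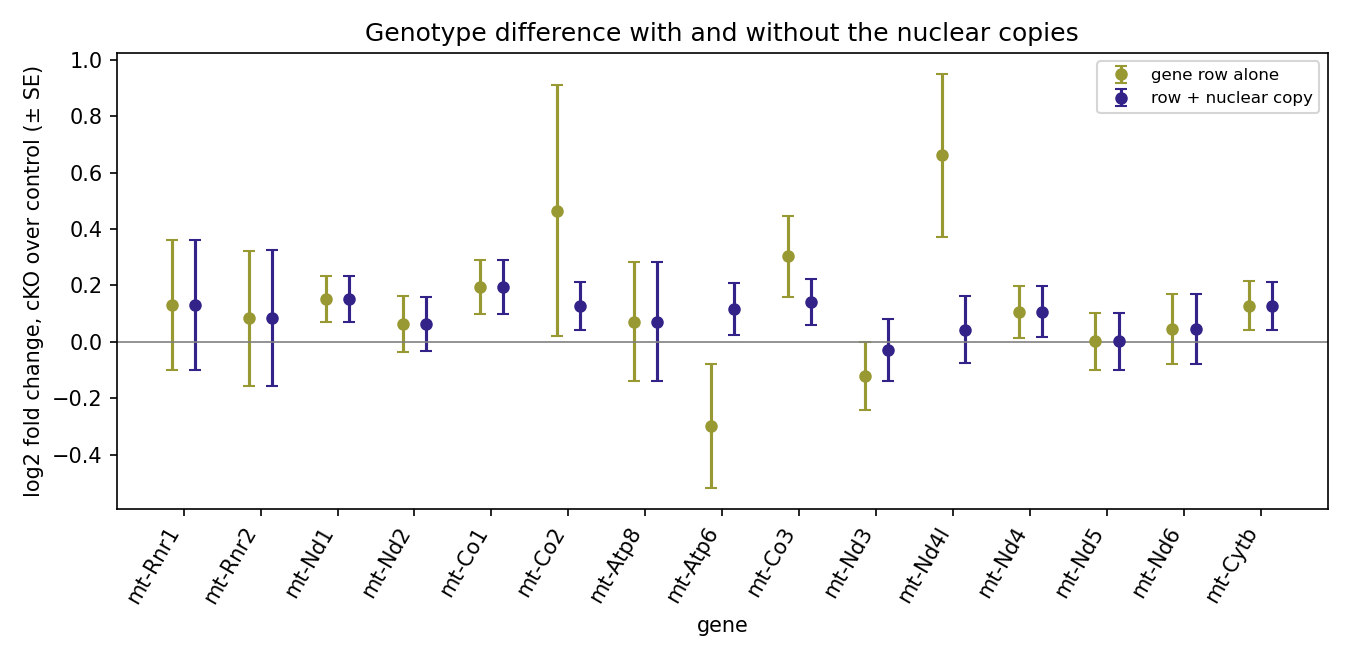
Log2 fold change, cKO over control, with its SE (vertical axis) for 15 mitochondrial genes, from the gene row alone and from the row with its nuclear copy, with 4 mice per genotype. *mt-Nd4l* moved from 0.66 to 0.04 and *mt-Atp6* from -0.30 to 0.12 when the copy was added.

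The ribosomal RNAs took 0.0605% to 0.128% of counts in these polyadenylated libraries. *mt-Rnr1*, the 12S RNA of the small subunit of the mitochondrial ribosome, had 335, 351, 359 and 613 CPM in controls and 499, 377, 553 and 386 CPM in cKO mice, and control 4 was the highest of the 8. *mt-Rnr2*, the 16S RNA of the large subunit, had 284, 471, 556 and 644 CPM in controls and 426, 536, 578 and 532 CPM in cKO mice. Their log2 fold changes were 0.13 ± 0.23 and 0.08 ± 0.24 (SE).

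Among the mitochondrial rows alone, the log2 ratio of ribosomal RNA to messenger counts was -5.34 ± 0.39 in controls and -5.35 ± 0.22 in cKO mice (SD, n = 4 each; exact permutation p = 1). With nuclear copies added to the messengers it was -5.91 ± 0.37 and -5.91 ± 0.23 (exact permutation p = 1). The log2 ratio of *mt-Nd6* to the 12 messengers of the other strand was -7.18 ± 0.12 in controls and -7.29 ± 0.08 in cKO mice for the rows alone (SD, n = 4 each; exact permutation p = 0.171). With copies added it was -7.75 ± 0.10 and -7.85 ± 0.08 (exact permutation p = 0.143). The difference of -0.10 for the rows was -0.059 without control 3 and -0.17 with mouse 1 of both genotypes left out (exact permutation p = 0.1, the smallest possible there). Of the messenger counts with copies, *mt-Co1* held 33.5% to 36.7% in single mice, *mt-Co3* 14.4% to 14.9%, *mt-Co2* 11.3% to 11.9% and *mt-Atp6* 9.36% to 10.6%. The share of *mt-Nd5* was 3.51%, 3.35%, 3.75% and 3.67% in controls and 3.24%, 3.22%, 3.29% and 3.22% in cKO mice, so that every cKO mouse lay below every control. It was the only 1 of the 13 messengers whose shares did not overlap, it was singled out after its values were seen, and the difference was not tested. This share is another measure than CPM. By CPM, 0 of the 15 mitochondrial rows and 5.59% of all genes did not overlap between genotypes. As a row, *mt-Nd5* had a log2 fold change of 0.0018 ± 0.10 (SE).

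The nuclear genes that serve the mitochondrial genome comprised 243 tested genes in 10 lists, of which 1 was called, against 0.0644% of all genes, and their median log2 fold change was -0.0048 against 0.01 over all genes. The called gene was *Lars2*, the leucyl-tRNA synthetase of mitochondria. It had 1070, 1007, 943 and 1082 CPM in controls and 1595, 1318, 1772 and 1830 CPM in cKO mice, with every cKO mouse above every control. Its log2 fold change was 0.67 ± 0.10 (SE), with an adjusted p of 0.0469 in edgeR. The adjusted p was 0.339 without cKO mouse 3, and the call was also lost without control 2, control 3, cKO mouse 1 or cKO mouse 4, at 0.16, 0.28, 0.0525 and 0.203. With limma it was 0.0874 to 0.191. *Rn18s-rs5* was higher in the same 4 mice, and its part in the result for *Lars2* was not tested. None of the other 18 synthetases tested was called, and the list had a median log2 fold change of 0.01.

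Among the 18 genes of mitochondrial DNA transcription and replication, 0 were called and 0 had an unadjusted p under 0.05 in edgeR, with a median log2 fold change of 0.03. *Primpol*, a primase and polymerase, had the smallest p of those higher in cKO mice (0.27 ± 0.14, SE) and *Mterf3*, a mitochondrial transcription factor, of those lower (-0.20 ± 0.12, SE). Of the 30 genes of RNA processing and stability 0 were called and 1 had an unadjusted p under 0.05, namely *Prorp*, the nuclease subunit of mitochondrial RNase P, at 0.28 ± 0.13 (SE). The 12 translation factors (median -0.06) and the 78 mitochondrial ribosomal proteins (median 0.04) also had 0 called. *Mrpl24* was the only 1 of the 78 ribosomal proteins at an unadjusted edgeR p under 0.05, with a log2 fold change of -0.28 ± 0.13 (SE). Over all genes tested, 8.94% lay under that threshold.

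The 86 nuclear genes tested for complexes I to V had 0 called, and 62 of them had a log2 fold change below 0, with a median of -0.05. Above 0 lay 27.9% of them, against 51.8% of all genes tested. At an unadjusted p under 0.05 there were 6 lower and 1 higher, against 6.21% and 2.73% of all genes. Complex IV held the largest differences. *Cox7b2*, a testis form of subunit 7b, had 32.5, 19.5, 31.6 and 17.0 CPM in controls and 12.2, 12.3, 11.6 and 12.99 CPM in cKO mice, ranges that did not overlap, as was the case for 5.59% of all genes. Its log2 fold change was -1.04 ± 0.20 (SE), with an adjusted p of 0.166 in edgeR. *Cox6b2* and *Cox8c*, testis forms of subunits 6b and 8, were named after their values were seen. *Cox6b2* had 91.5, 42.2, 52.7 and 32.0 CPM in controls and 25.9, 19.6, 22.7 and 26.3 CPM in cKO mice, with no overlap and a log2 fold change of -1.21 ± 0.31 (SE). *Cox8c* had 61.9, 19.6, 25.3 and 14.4 CPM in controls and 17.1, 4.78, 8.85 and 5.68 CPM in cKO mice, with overlap and a log2 fold change of -1.73 ± 0.62 (SE). *Cox6a2* also lay below -1, at -1.37 ± 1.16 (SE). *Cox6b1*, the form of subunit 6b found in most tissues, had a log2 fold change of 0.09 ± 0.09 (SE). DESeq2 without independent filtering called 3 of the 243 genes in the nuclear lists, against 1.28% of all genes. These were *Cox7b2* and *Cox6b2* (adjusted p = 0.00145 and 0.00249 in DESeq2) and *Lars2*. In complex I, *Ndufs6* had a log2 fold change of -0.49 ± 0.15 and *Ndufb11* 0.25 ± 0.11 (SE), and in complex III *Uqcrb* had -0.25 ± 0.11 (SE).

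**Figure D5:**
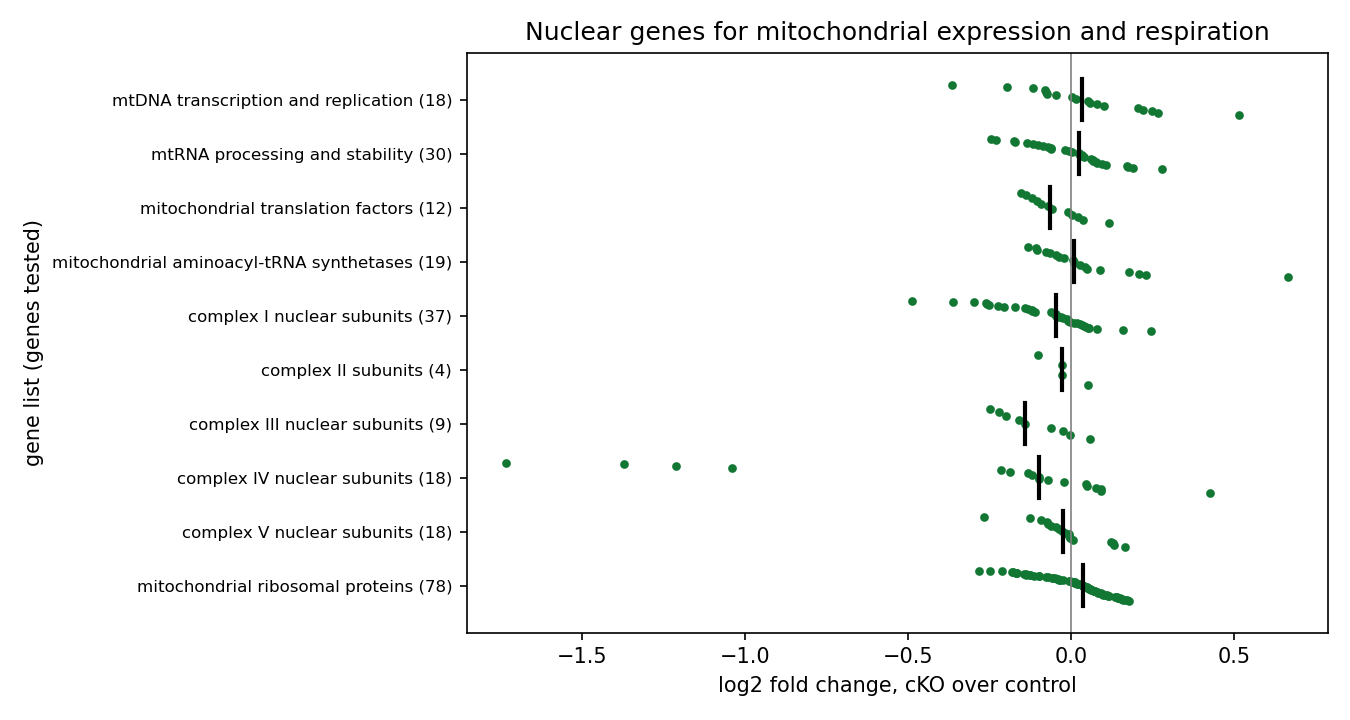
Log2 fold change, cKO over control (horizontal axis), of each tested nuclear gene in 10 lists, with 1 point per gene and the list median as a black bar. The points below -1 belong to complex IV, and the highest point is *Lars2* at 0.67.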

How the data were processed

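The authors aligned paired 150-base reads of non-stranded, polyA-enriched libraries to mm39 with STAR 2.7.9a and quantified Ensembl genes with RSEM 1.3.3. They deposited RSEM expected counts (estimated counts, not whole in 15.2% of nonzero values) and TPM values for each library. Expected counts were rounded and the 20187 genes reaching a TPM of 1 in any library were kept. Genotypes were compared with edgeR 4.0.16 (TMM, robust quasi-likelihood test, no covariate), with DESeq2 1.42.0 and limma 3.58.1 as alternatives. Only the edgeR fit was tested on simulated data. For shares and ratios the 70 possible assignments of mice gave an exact, two-sided permutation p. Nuclear copies were found with BLAST 2.17.0 in GRCm39 with GENCODE M39, as alignments of at least 99% identity and 100 bp, and their counts were added to the gene they copy in a fit chosen after seeing the data. Totals of 12584726 to 15907505 counts put 3 counts at 0.189 to 0.238 CPM. Named genes were all members, nuclear copies with at least 100 counts, *Mgat2*, *Lars2*, *Rn18s-rs5*, and the called or smallest-p genes of each nuclear list. Members and lists were chosen with earlier results of these data known. Python 3.11.15 and scipy 1.17.1 were used.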

Additional observations from a re-analysis of the deposited data

Results flagged for a closer look

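In groups of 4 mice, values whose gap to the next mouse exceeded 0.829 of the range of the group were looked for in 66 groups of values, and 3 were found. Chance alone gives about 1 in 20 groups. The ribosomal RNA share was 0.112% in cKO mouse 3, against 0.0908% to 0.0924% in the other cKO mice. *mt-Rnr1* was at 613 CPM in control 4, against 335 to 359 CPM in the other controls. *mt-Co2* with its nuclear copy was at 7661 CPM in cKO mouse 1, against 6362 to 6557 CPM in the other cKO mice.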

How the results depend on the processing

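The share of mitochondrial counts and the ratio of *mt-Nd6* to the other messengers kept their direction under every alternative tried, and no alternative passed the threshold. With replicates 2 to 4 and with the replicate block the smallest p possible was 0.1 and 0.125, so those alternatives could not pass it. No mitochondrial gene was called in any of the 31 alternative fits. The log2 ratio of ribosomal RNA to messengers, near 0 in its genotype difference, turned sign with TPM (0.025) and with nuclear copies added (0.0016), and ranged from -0.15 to 0.17 when 1 mouse was left out. The number of called genes in the nuclear lists was 1 and became 3 with DESeq2 with or without independent filtering, 0 with limma-voom, limma-trend on either pseudocount, DESeq2 size factors, TMM on nuclear genes and filterByExpr, 2 without an expression filter, 3 with replicates 2 to 4 (*Cox6b2*, *Cox7b2* and *Cox8c*), and 0 to 2 when 1 mouse was left out, with or without copies. The cause was not tested.

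With the replicate number as a replicate block the nuclear lists had 7 called genes, with or without copies added (*Lars2* higher and *Cox7b2*, *Cox8c*, *Ndufs5*, *Ndufs6*, *Uqcrc1* and *Mrpl24* lower), and over all genes 1324 were called lower and 184 higher, against 12 and 1 without it. The deviations of mice with the same number from their group means correlated at 0.48, 0.11, 0.03 and 0.16 for numbers 1 to 4, with a mean of 0.19 against -0.06 for mice with different numbers, where the highest was 0.16. The labels name no shared litter, batch or day, and number 3 lay below 0.1, so the numbers were not taken to pair the mice. Not every mouse correlated best with its own number. DESeq2 without independent filtering called 247 lower and 11 higher, with it 286 and 18, limma 0 in both directions, and edgeR without an expression filter 33 and 2. EdgeR with DESeq2 size factors or TMM on nuclear genes called 8 and 0, filterByExpr 0 and 0, and replicates 2 to 4 764 and 91.

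With replicates 2 to 4 only, log2 fold changes turned negative for *mt-Rnr1* (-0.0034), *mt-Rnr2* (-0.021), *mt-Nd2* (-0.0089), *mt-Atp8* (-0.14), *mt-Nd5* (-0.10), *mt-Nd6* (-0.12), *Gm28437* (-0.017), *Gm28438* (-0.13), *Gm29216* (-2.60) and *Sdhb* (-0.00044). *mt-Atp6* became 0.12 with copies added and also 0.12 with the block as well. *mt-Nd5*, at 0.0018, became -0.0095 with DESeq2 and with its size factors, -0.010 with limma-trend, -0.0058 with library totals, -0.0013 with TMM on nuclear genes, -0.00072 without a filter and -0.0012 with filterByExpr. *Gm29216* became -2.42 with limma-voom, -1.65 and -3.27 with limma-trend at pseudocounts of 1 and 0.1, and -0.0044 with the block. Leaving out 1 mouse gave ranges that crossed 0 for *mt-Rnr2* (-0.11 to 0.245), *mt-Nd2* (-0.015 to 0.15), *mt-Atp8* (-0.12 to 0.22) and *mt-Nd5* (-0.065 to 0.089). The same held for *mt-Nd6* (-0.057 to 0.15), *Gm29216* (-2.21 to 3.13), *Sdhb* (-0.049 to 0.0997) and *Cyc1* (-0.0083 to 0.12). With copies added, *mt-Nd3* (-0.14 to 0.039) and *mt-Nd4l* (-0.059 to 0.11) crossed 0. As rows they did not, at -0.21 to -0.042 and 0.45 to 0.81. *mt-Atp6* crossed 0 in neither form, at -0.49 to -0.16 as a row and 0.063 to 0.18 with its copy.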
